A study of Mus musculus with 8 samples.

Results

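Kdm1a encodes the histone demethylase LSD1, and the genes described here are Kdm1a and 8 genes for proteins that form complexes with it: the scaffolds Rcor1, Rcor2 and Rcor3, the deacetylases Hdac1 and Hdac2, and the further subunits Hmg20b, Phf21a and Zmym2. The 9 genes were taken by symbol from the 49315 genes in the deposited count tables, and all 9 had enough counts to be tested. Messenger RNA had been sequenced from frozen mouse kidneys, 4 labelled control and 4 labelled conditional knockout. The extraction protocol calls the controls wild type, and the gene deleted in the knockouts is Kdm1a according to the series title. The Cre driver, the floxed exons, the strain, the age and the sex of the animals are not given in the sources used here, so the cells in which Kdm1a was deleted cannot be stated. Nothing says that the 8 kidneys came from 8 animals, so p-values measure the spread between these samples, which may in part be technical.

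LSD1 removes methyl groups from mono- and dimethylated lysine 4 of histone H3, a mark found at active enhancers and promoters. To act on nucleosomes it needs a CoREST scaffold, which also carries HDAC1 or HDAC2, so demethylation and deacetylation are coupled on the same chromatin. Sequence-specific repressors such as REST, GFI1 and SNAI1 bring the complex to DNA, where it is best known for keeping lineage-inappropriate genes, neuronal ones among them, silent.

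Levels are given as CPM, the counts of a gene relative to the library total after scaling by the trimmed mean of M values (TMM), and differences as the log2 fold change of knockout over control with its standard error (SE). A gene was called changed when the adjusted p of the quasi-likelihood test of edgeR, with Benjamini-Hochberg adjustment over all 18485 genes tested, was under 0.05. Every adjusted p printed for a gene is from edgeR unless another tool is named.

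Of the 9 genes, 2 were called changed: Kdm1a fell and the scaffold Rcor2 rose. Over all genes tested, 2751 were called, which is 14.9%, with 6.61% called higher and 8.27% called lower in knockouts. The 2 of 9 is near that background. The groups did not overlap for the same 2 members, against 18.9% of all genes tested. At an unadjusted p under 0.05 the count was 6 of the 9 members and 6489 of all genes tested. The median log2 fold change of the 9 was 0.06, beside 0.00 over all genes.

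**Figure D1:**
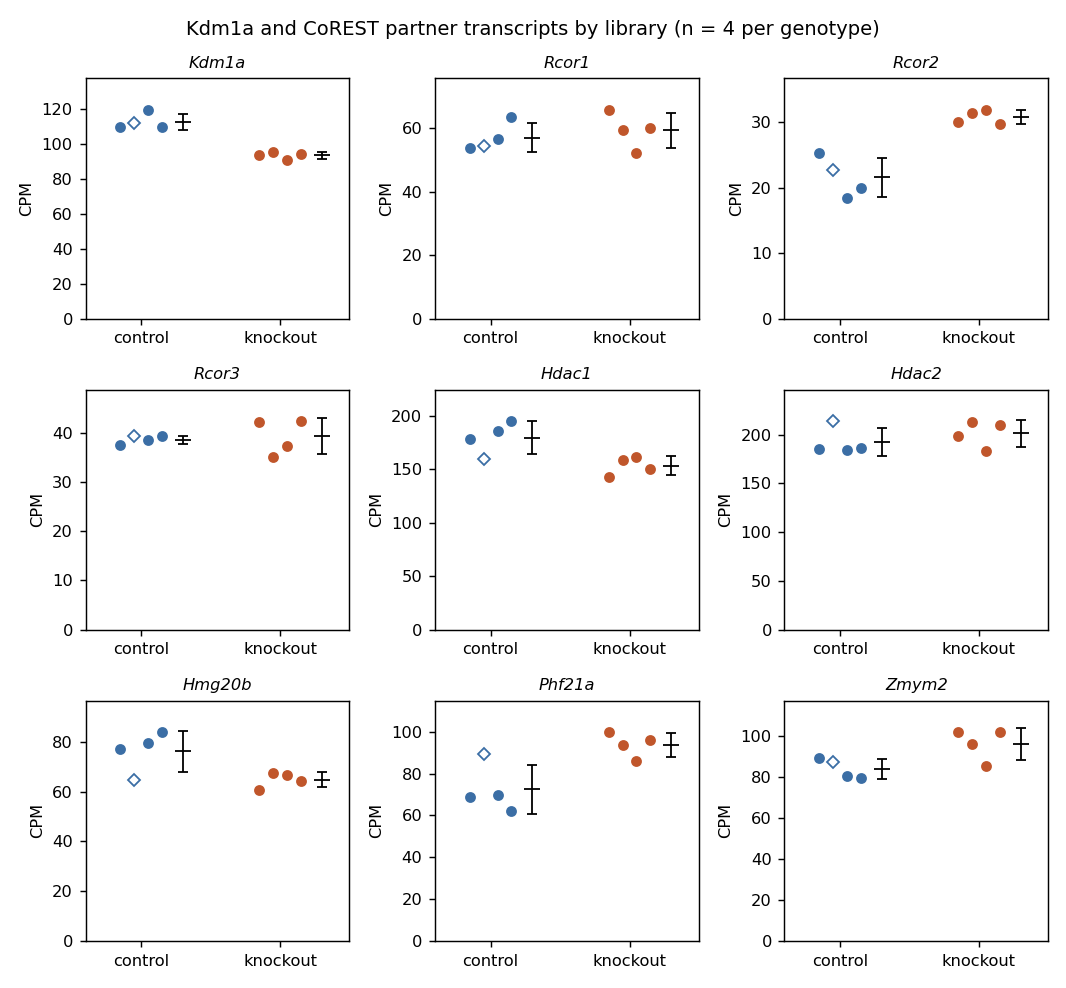
TMM-scaled CPM of each of the 9 members (y axis, linear from 0) in the 4 control libraries (blue, control replicate 2 as an open diamond) and the 4 knockout libraries (red), with the mean and SD of each group in black. Kdm1a and Rcor2 are the members whose groups do not overlap, Kdm1a at 110 to 120 CPM in controls and 90.9 to 95.3 CPM in knockouts, Rcor2 at 18.4 to 25.3 CPM and 29.8 to 31.9 CPM.

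The 2 members called moved in opposite directions, and their promoters are shown here as RefSeq gives them on GRCm38.p6, from 250 bases before to 50 bases after the gene start. Capitals mark every match to the GC box GGGCGG and to the CCAAT box, searched on both strands. The promoter of Kdm1a lies at chr4:136602674-136602973 on the minus strand and that of Rcor2 at chr19:7267144-7267443 on the plus strand.
Kdm1a: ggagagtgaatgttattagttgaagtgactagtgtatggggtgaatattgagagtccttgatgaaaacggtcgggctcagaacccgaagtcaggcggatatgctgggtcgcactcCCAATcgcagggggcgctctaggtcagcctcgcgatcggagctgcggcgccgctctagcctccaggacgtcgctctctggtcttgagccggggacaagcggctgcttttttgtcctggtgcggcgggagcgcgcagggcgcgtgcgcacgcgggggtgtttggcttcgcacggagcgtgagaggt
Rcor2: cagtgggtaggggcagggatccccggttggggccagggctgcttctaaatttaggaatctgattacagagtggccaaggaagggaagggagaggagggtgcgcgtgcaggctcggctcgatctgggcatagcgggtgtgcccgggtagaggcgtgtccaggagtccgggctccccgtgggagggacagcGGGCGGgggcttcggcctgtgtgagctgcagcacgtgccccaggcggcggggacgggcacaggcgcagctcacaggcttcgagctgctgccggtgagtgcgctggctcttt

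Both promoters are rich in G and C, 61.3% for Kdm1a and 67.3% for Rcor2, where the median of all promoters in the table was 52.7%. The Kdm1a window holds 29 CpG dinucleotides, 1 CCAAT and no GGGCGG, and the Rcor2 window holds 21 CpG dinucleotides, 1 GGGCGG and no CCAAT. Of 32851 promoters of the same length, 35.7% hold GGGCGG and 37.4% hold CCAAT. The E2 box CAGGTG, bound by SNAI proteins, is in 20.2% of them and the GFI1 core AAATCAC in 3.2%, and neither is in the promoter of any of the 8 members found in the table (Hdac1 was not matched). No chromatin was measured in the samples used here, so these letters describe the promoters and nothing about what binds them.

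Kdm1a (ENSMUSG00000036940, chr4:136550540-136602723, minus strand, GRCm38) was the targeted gene. Its level was 110, 112, 120 and 110 CPM in controls 1 to 4 and 94.0, 95.3, 90.9 and 94.2 CPM in knockouts 1 to 4. Every knockout was below every control, and the lowest control stood well clear of the highest knockout. The mean fell by 17.0% in the fit, from 113 ± 4.77 CPM to 93.6 ± 1.88 CPM (SD, n = 4 each). On the log2 scale the difference was -0.27 (SE 0.05, 95% interval -0.39 to -0.15, edgeR adjusted p = 0.0194). An exact two-sided permutation test of CPM over the 70 assignments gave p = 0.0286, the smallest that 4 against 4 allows. Of all genes tested, 45.9% had a larger absolute log2 fold change.

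Between 1898 and 2968 reads per library were counted for Kdm1a. The coefficient of variation was 2.01% among knockouts and 4.23% among controls. Counting alone gives 2.01% at the mean count over all 8 libraries, controls included. The kidneys were sequenced in bulk, so fewer cells that express a gene and less RNA per cell cannot be told apart, for Kdm1a or any gene below. The deposited counts sum reads over all exons of the gene, so a transcript that lacks a deleted exon still counts, and the values do not check the deletion itself. The call was lost with scaling by total library count (-0.20, edgeR adjusted p = 0.0533) and without control 1, control 3, knockout 1, knockout 2 or knockout 4, where the log2 fold change stayed between -0.28 and -0.24.

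Luzp1 and Gm12987 overlap Kdm1a on the genome. Luzp1, on the opposite strand, shares 4241 bases of its span with Kdm1a, but the exons of the pair hold no run of 50 bases in common in GENCODE M21. Luzp1 was at 87.3 CPM in controls and 82.0 CPM in knockouts, and its log2 difference was -0.09 (SE 0.06, adjusted p = 0.310). Gm12987, a processed pseudogene inside Kdm1a on the same strand, had 23 reads in all 8 libraries together. No run of 50 bases of Kdm1a transcripts occurs in any other annotated transcript.

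The scaffolds bind LSD1 through a linker and the neighbouring SANT domain, and Rcor1 (CoREST1) is the founding member of the family. Rcor2 (ENSMUSG00000024968, chr19:7267325-7275225, plus strand), known from neural progenitors and stem cells, was at 25.3, 22.7, 18.4 and 19.95 CPM in controls and at 30.1, 31.5, 31.9 and 29.8 CPM in knockouts. All knockouts were above all controls, and the controls spread more widely. Rcor2 rose by 42.7%, from 21.6 ± 3.02 to 30.8 ± 1.04 CPM (SD, n = 4 each), which is 0.51 on the log2 scale (SE 0.10, 95% interval 0.28 to 0.75, edgeR adjusted p = 0.0198). The call was lost without control 3, control 4, knockout 1, knockout 2 or knockout 4, with log2 fold changes of 0.44 to 0.55 there.

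Rcor1 (ENSMUSG00000037896, chr12:111039351-111115901, plus strand) was at 53.6, 54.5, 56.7 and 63.4 CPM in controls and 65.8, 59.3, 52.0 and 59.97 CPM in knockouts. Knockouts gave the highest and the lowest value, and the groups overlapped fully. For Rcor1 the log2 fold change was 0.06 (SE 0.09, 95% interval -0.14 to 0.25, adjusted p = 0.674). Rcor3 (ENSMUSG00000037395, chr1:192098546-192138062, minus strand) was at 37.5, 39.2, 38.4 and 39.2 CPM in controls and 42.2, 35.1, 37.2 and 42.4 CPM in knockouts. Its controls lay inside the range of the knockouts. Its log2 fold change was 0.02 (SE 0.08, 95% interval -0.15 to 0.19, adjusted p = 0.843). Of the 50-base runs of Rcor3, 7.16% also occur in other genes, mostly the antisense genes Gm26879 and Gm10516.

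The scaffolds were also compared as shares of their summed level per length, which does not depend on library scaling. Level per length is CPM divided by the kilobases of exon of the gene (RPKM). The length covers all annotated exons, 3135 bases for Rcor2 and 13622 for Rcor3, and can exceed that of the transcripts made. The shares and the order of the scaffolds depend on it. Rcor1 made up 50.8 ± 3.84% of the 3 scaffolds in controls and 45.0 ± 2.58% in knockouts (SD, n = 4 each). Rcor2 made up 34.8 ± 4.19% and 42.6 ± 2.90%, and Rcor3 14.4 ± 0.645% and 12.4 ± 0.949%. In both genotypes the order was Rcor1, Rcor2, Rcor3 by mean. The log2 difference in the Rcor1 share was -0.17, the ranges overlapped, and an exact two-sided permutation test gave p = 0.0571, also 0.0571 after adjustment over the 3 ratios computed. The ratio of Kdm1a to Rcor1 in RPKM was 2.18 ± 0.191 in controls and 1.74 ± 0.143 in knockouts (log2 difference -0.32, exact permutation p = 0.0571, adjusted p = 0.0571). Control 4, at 1.90, was the control that lay inside the knockout range of 1.57 to 1.92.

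Hdac1 and Hdac2 are closely related class I deacetylases that serve the CoREST, NuRD and Sin3 complexes alike. Hdac1 (ENSMUSG00000028800, chr4:129516104-129542713, minus strand) was at 178, 160, 186 and 195 CPM in controls and 142, 159, 162 and 150 CPM in knockouts. Controls 1, 3 and 4 were above all knockouts, and control 2 lay among them. The log2 fold change was -0.23 (SE 0.08, 95% interval -0.40 to -0.06), which did not pass the test (adjusted p = 0.0676). Without control 2 it passed, at -0.28 (adjusted p = 0.00988), in a fit that called 37.4% of all genes tested. Hdac1 was called in 1 of the 8 fits that left out 1 library, and the largest adjusted p among them was 0.181. Hdac2 (ENSMUSG00000019777, chr10:36974544-37001889, plus strand) was at 185, 214, 185 and 187 CPM in controls and 198, 213, 183 and 210 CPM in knockouts. Control 2 was the highest of the 8 libraries, and the groups overlapped. For Hdac2 the log2 fold change was 0.06 (SE 0.07, 95% interval -0.10 to 0.23, adjusted p = 0.566).

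The count of Hdac1 is uncertain, because its reads can be shared with a copy. Of the 50-base runs in Hdac1 transcripts, 31.7% also occur in Gm10093 (ENSMUSG00000061062, chr17:78491565-78493541), a processed pseudogene of Hdac1. The coding sequence of Hdac1 is 1446 bases long, and 1444 of them align with Gm10093 at 99.4% identity with 9 differences and an identical run of up to 450 bases. Within the aligned stretch, a read can be told apart only where it crosses a difference, while the rest of the Hdac1 transcript lies outside it. How reads that match several genes were treated is not given in the sources used here. The window with the most differences, bases 423 to 482 of the coding sequence (GENCODE M21, GRCm38), shows the letters that separate the pair, with the 5 differing bases in capitals.
Hdac1: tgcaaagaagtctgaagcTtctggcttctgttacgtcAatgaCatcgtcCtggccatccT
Gm10093: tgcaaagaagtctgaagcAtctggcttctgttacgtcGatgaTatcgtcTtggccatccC

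Gm10093, chosen for its shared sequence after its values were seen, was at 30.6, 19.7, 17.0 and 18.8 CPM in controls and 33.7, 36.7, 34.9 and 37.0 CPM in knockouts. All knockouts were above all controls, with control 1 nearest to them. The log2 fold change was 0.73 (SE 0.17, edgeR adjusted p = 0.0277), and the call was lost with a covariate for adrenal gland genes (0.77, adjusted p = 0.0537) and without control 3, control 4, knockout 1, knockout 2 or knockout 4. When the counts of the pair were added, the sum was 201 ± 15.2 CPM in controls and 189 ± 9.47 CPM in knockouts (SD, n = 4 each), and the log2 fold change of Hdac1 moved from -0.23 to -0.09 (SE 0.07, adjusted p = 0.372).

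**Figure D2:**
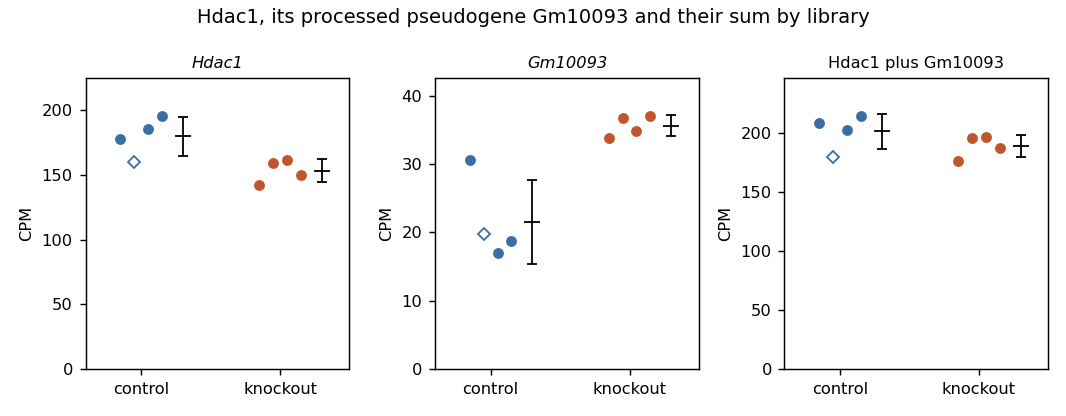
TMM-scaled CPM (y axes, linear from 0) of Hdac1, of its processed pseudogene Gm10093 and of their sum in the 4 control libraries (blue, control replicate 2 as an open diamond) and the 4 knockout libraries (red), with mean and SD in black. Hdac1 is 180 CPM against 153 CPM, Gm10093 is 21.5 CPM against 35.6 CPM, and the sums of 201 and 189 CPM overlap between groups.

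The ratio of Hdac1 to Hdac2 in RPKM was 1.22 ± 0.174 in controls and 0.993 ± 0.102 in knockouts (SD, n = 4 each). The log2 difference was -0.29, with overlapping ranges (exact permutation p = 0.0571, adjusted p = 0.0571). With the Gm10093 counts added to Hdac1 it was -0.15 (exact permutation p = 0.343).

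The further subunits attach to the scaffold or to LSD1. Hmg20b (BRAF35, an HMG-box protein; ENSMUSG00000020232, chr10:81346048-81350480, minus strand) was at 77.1, 64.7, 79.5 and 84.0 CPM in controls and 60.8, 67.4, 66.9 and 64.5 CPM in knockouts. Control 2 lay inside the knockout range and the other controls above it. The log2 fold change of -0.23 (SE 0.09, 95% interval -0.43 to -0.04) did not pass (adjusted p = 0.0912). Without control 2, Hmg20b passed at -0.31 (adjusted p = 0.00643), where 37.4% of all genes tested were called. It was called in 1 of the 8 fits that left out 1 library, and its adjusted p reached 0.219 without control 4.

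Phf21a (BHC80, whose PHD finger binds the unmethylated lysine that LSD1 produces; ENSMUSG00000058318, chr2:92093117-92364666, plus strand) was at 68.9, 89.1, 69.5 and 62.1 CPM in controls and 99.8, 93.4, 86.0 and 95.9 CPM in knockouts. Again control 2 stood apart from the other controls and lay among the knockouts. The group means were 72.4 ± 11.6 and 93.8 ± 5.82 CPM (SD, n = 4 each), and the log2 fold change of 0.37 (SE 0.11, 95% interval 0.13 to 0.62) missed the threshold at an adjusted p of 0.0502. Phf21a passed it without control 2 (0.49, adjusted p = 0.00201) and without knockout 3 (0.43, adjusted p = 0.0454). Those fits called 37.4% and 17% of all genes tested.

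Zmym2 (ZNF198, a zinc-finger protein that binds SUMO; ENSMUSG00000021945, chr14:56887795-56962579, plus strand) was at 89.1, 87.4, 80.4 and 79.3 CPM in controls and 102, 96.1, 85.3 and 102 CPM in knockouts. Knockouts 1, 2 and 4 were above all controls, and knockout 3 lay among them. The log2 fold change was 0.20 (SE 0.08, 95% interval 0.03 to 0.37, adjusted p = 0.103), and it passed the test without knockout 3 (0.27, adjusted p = 0.0368). That fit called 17% of all genes tested.

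**Figure D3:**
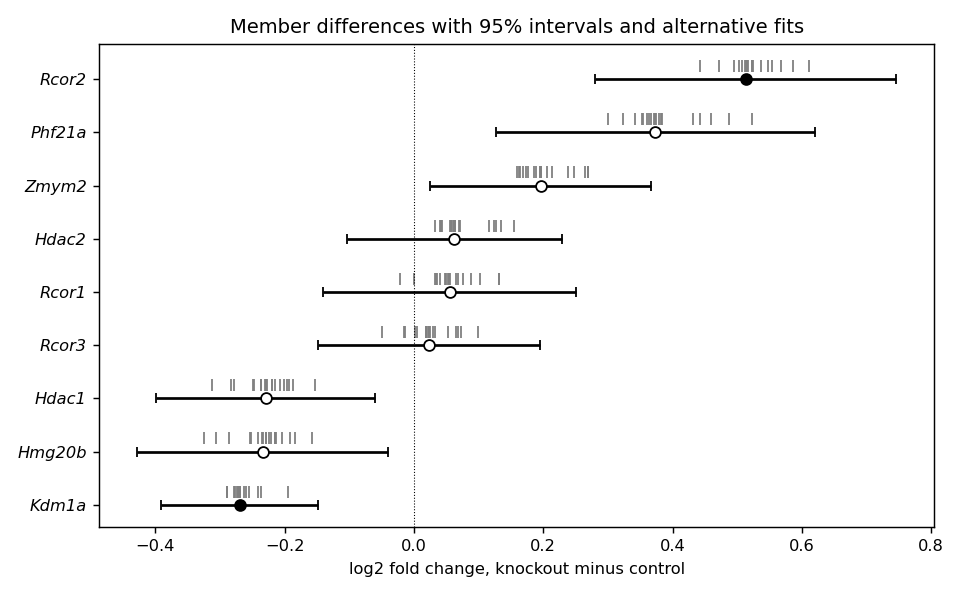
Log2 fold change of knockout over control (x axis) for the 9 members, with 95% intervals of the edgeR test as bars, filled points for called genes and grey ticks for the values under alternative processing. Rcor2 at 0.51 and Kdm1a at -0.27 are filled, and the ticks of Rcor1 and Rcor3 fall on both sides of 0.

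Control 2 and knockout 3 recur among these exceptions, and both stood apart from their groups over the whole transcriptome. On the first principal component of all tested genes, which carried 62.7% of the variance, they lay side by side at 9.56 and 9.71, with the other controls between -78.7 and -52.4 and the other knockouts between 48.3 and 68.4. Control 2 fell inside the knockout range for 6 of the 9 members, where control 1 did so for 4 and controls 3 and 4 for 3 each. Among the 6, Rcor1 and Rcor3 lay inside for every control and Zmym2 also for control 1. Hdac1, Hmg20b and Phf21a lay inside for control 2 alone. The same count over all genes is not given here. Control 2 and knockout 3 are each the library of their group nearest the other group on that component. Fits without 1 or both of them are therefore a description and add no support. Without both libraries, 6 members were called, with 42.7% of all genes tested called in that fit. Of these members, 3 were higher (Rcor2, Phf21a, Zmym2) and 3 lower (Kdm1a, Hdac1, Hmg20b). The fold changes of Kdm1a and Rcor2 were then -0.26 and 0.52, close to those from all 8 libraries, while Hdac1 was at -0.31 and Phf21a at 0.52.

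Other features of the libraries moved with genotype or with single libraries. Total counts ran from 19524945 to 28544511. Scaling by total count in place of TMM turned the share of calls that were higher in knockouts from 44.4% to 57.2%. The 12 kidney epithelium markers were detected in all libraries, and 5 of them were called lower (Lrp2, Slc34a1, Umod, Slc12a3, Nphs1). Their summed level was 1508 to 3481 CPM in controls and 848 to 2028 CPM in knockouts. The 6 nephron progenitor markers summed to 412 to 642 CPM and 432 to 619 CPM, with Cited1 and Meox1 called lower and the other 4 at positive log2 fold changes that did not pass the test, Six2 at 0.47 among them. The 7 neuron markers summed to 41.0 to 77.1 CPM and 76.6 to 219 CPM, with Stmn2 and Gap43 called higher. Adrenal genes, of which 10 of 12 could be tested, had 0 called by edgeR, 6 at an unadjusted p under 0.05, 5 called by DESeq2 and 0 by voom. They summed to 20.5 to 154 CPM in controls and 17.7 to 2770 CPM in knockouts. Knockout 1 held the highest adrenal sum and knockout 4 the next, and Cyp11b2, the aldosterone synthase, was at 0 counts in control 1, control 2 and knockout 2. Leukocyte markers summed to 70.2 to 83.0 CPM and 74.1 to 97.2 CPM, with 1 called higher (Ptprc) and Cd3e at 0 counts in 4 libraries. Of the 5 leukocyte markers tested, 3 had positive and 2 negative log2 fold changes, with a median of 0.085. Cycling and red blood cell markers, 6 each, had 0 called by edgeR, 0 at an unadjusted p under 0.05, 0 called by DESeq2 and 1 each by voom, with sums of 752 to 883 against 807 to 900 CPM and of 391 to 816 against 455 to 1393 CPM. Xist was at 965 to 1086 CPM in control 2, knockout 1 and knockout 4 and at 2.25 to 6.14 CPM in the other 5 libraries, and Y-linked transcripts were split the opposite way. With a covariate for the Y-linked transcripts, Kdm1a was at -0.27 (adjusted p = 0.0284) and Rcor2 at 0.51 (adjusted p = 0.0305), and with a covariate for the adrenal genes they were at -0.27 (adjusted p = 0.0448) and 0.55 (adjusted p = 0.0388). The part of the epithelial, progenitor, neuron and leukocyte markers in the member differences was not tested.

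Levels of different genes were compared per length. Hdac1 and Hdac2 were the most abundant members, at 48.3 and 44.0 RPKM averaged over the 8 libraries, followed by Hmg20b at 22.4, Kdm1a at 19.9, Zmym2 at 13.1, Rcor1 at 10.2, Phf21a at 9.71, Rcor2 at 8.36 and Rcor3 at 2.86 RPKM. The ranges of neighbours in this order were apart at 3 steps: Hdac2 above Hmg20b, Kdm1a above Zmym2 and Rcor2 above Rcor3. The order depends on the exon length used. In CPM, Rcor3 at 35.1 to 42.4 lay above Rcor2 at 18.4 to 31.9. At the other 5 steps the ranges over libraries overlapped. Within libraries, Zmym2 nevertheless exceeded Rcor1 in 8 of 8 and Hmg20b exceeded Kdm1a in 7. Hdac1 exceeded Hdac2 in 4 of the 8.

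**Figure D4:**
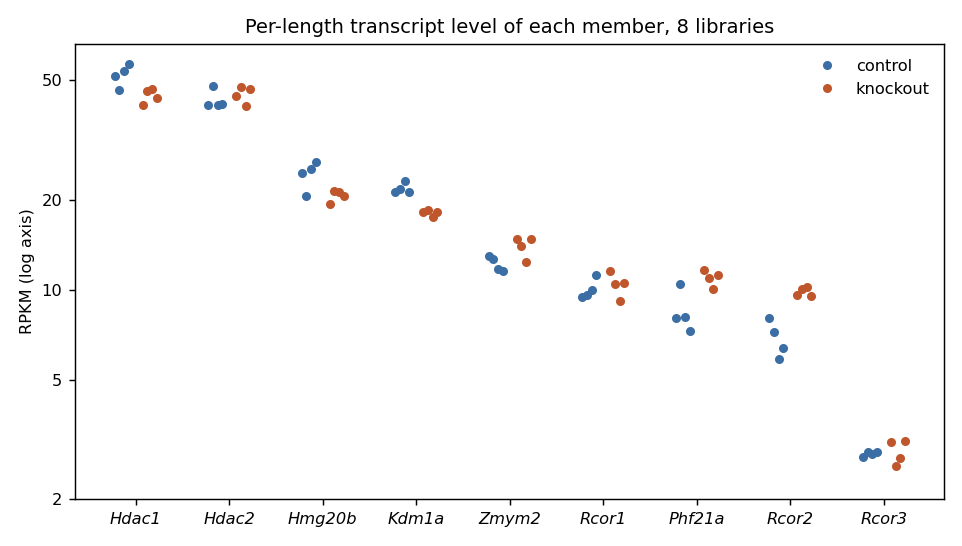
Level per length of each member (RPKM, log axis) in the 4 control (blue) and 4 knockout (red) libraries, in order of the mean over all 8. Hdac1 and Hdac2 lead near 48.3 and 44.0 RPKM, and Rcor3 at 2.86 RPKM lies below all others, an order that depends on the exon length used.

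Other genes of the same machinery were read from the same fit, in lists of further CoREST and LSD1 subunits, recruiting factors and the other complexes that hold class I deacetylases. Of the 9 further subunits, 3 were called higher and 1 lower, with a median log2 fold change of 0.14. Over all genes tested, 6.61% were called higher and 8.27% lower. Zfp217, a zinc-finger protein that binds CoREST and CtBP, rose from 43.1 ± 3.82 to 59.5 ± 5.52 CPM (SD, n = 4 each; log2 fold change 0.46, SE 0.09, adjusted p = 0.0187). Zmym3, a relative of Zmym2, rose from 61.7 ± 1.39 to 72.0 ± 4.10 CPM (0.22, SE 0.06, adjusted p = 0.0405). Kdm1b, the gene for LSD2 and the other LSD-type demethylase, fell from 26.8 ± 3.09 to 20.3 ± 1.38 CPM (-0.40, SE 0.10, adjusted p = 0.0346). For these 3 genes, no knockout value crossed into the control range.

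Of 9 recruiting factors, 5 could be tested, and Gfi1, Gfi1b, Insm1 and Nr2e1 were too low. Snai2, a repressor of epithelial genes, was the single one called and rose from 35.5 ± 2.96 to 44.1 ± 2.88 CPM (SD, n = 4 each; 0.31, SE 0.08, adjusted p = 0.0352). Rest, the repressor of neuronal genes, was at 76.9 ± 20.8 and 92.3 ± 9.97 CPM (0.26, SE 0.17, adjusted p = 0.289), with control 2, at 107 CPM, above all knockouts.

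In the complexes that share Hdac1 and Hdac2 the medians differed in sign. The Sin3 list had 3 of 13 genes called lower and none higher, with a median log2 fold change of -0.17: the subunits Sap30l (-0.25, adjusted p = 0.0264), Sap18 (-0.21, adjusted p = 0.0388) and Brms1 (-0.32, adjusted p = 0.0485) fell. The NuRD list had 1 of 12 called higher, the remodeller Chd3 (0.20, adjusted p = 0.0479), and 2 lower, the methyl-CpG-binding family gene Mbd3 (-0.32, adjusted p = 0.0331) and Cdk2ap1 (-0.25, adjusted p = 0.0329), with a median of -0.06. Of the 6 MiDAC and Mier genes, edgeR called 0, with 2 at an unadjusted p under 0.05, 1 called by DESeq2 and 3 by voom, and a median of 0.17. In the list of the remaining class I deacetylases and their corepressors, Hdac8 was called and rose from 18.1 ± 1.07 to 23.6 ± 1.98 CPM (SD, n = 4 each; 0.38, SE 0.09, adjusted p = 0.0290). Over all genes tested, 14.9% were called, 6.61% higher and 8.27% lower, and the list counts were not tested against these shares. In all, 12 genes of the 6 lists were called, 6 in each direction. That count fell to 1 or 0 without control 1, 3 or 4 or without knockout 1, 2 or 4 and was 28 without control 2, while the count over all genes went from 2751 to between 153 and 695 and to 7084.

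**Figure D5:**
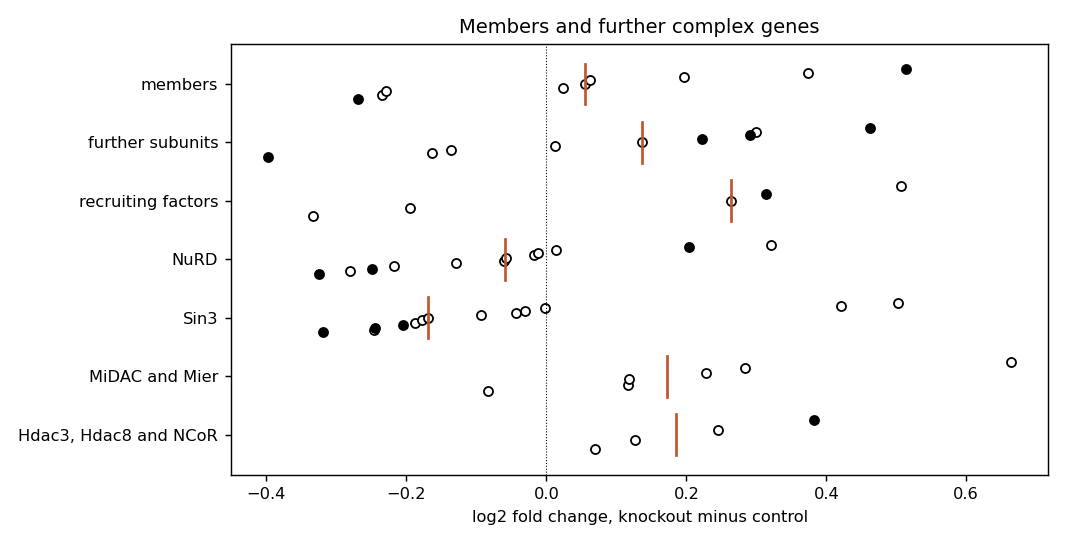
Log2 fold change of knockout over control (x axis) for the 9 members and the tested genes of the 6 lists (rows), with called genes filled and the median of each row as a red line. The Sin3 row has its median at -0.17 and 3 filled points, all below 0, and the further subunits have 3 filled points above 0 and Kdm1b at -0.40.

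The genes whose profile over the 8 libraries was most like that of Kdm1a were sought among the 10807 genes averaging 10 CPM or more, by the root mean square difference of log2 CPM centred on each gene's mean. They were Sypl, a synaptophysin-like membrane protein (0.032), Mtmr4, a phosphoinositide phosphatase (0.042), Gtf2h4, a subunit of the general transcription factor TFIIH (0.045), the Sin3 subunit Sap30l (0.049) and Agpat5, a phospholipid acyltransferase (0.049). Their log2 fold changes, from -0.27 to -0.20, follow from this choice and are a description. Among the members, Hdac1 (0.10, rank 643) and Hmg20b (0.12, rank 1204) came closest to Kdm1a, and Rcor2, which moved the opposite way, was at 0.42 with rank 9558.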

How the data were processed

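Per the file headers, each deposited table lists exon coordinates, gene length and the raw counts of reads, which the authors had not normalized. Per the submitters' processing notes, reads were handled with Trimmomatic 0.36, STAR 2.5.2b, featureCounts of Subread 1.5.2 and DESeq2 on GRCm38. Strand and the handling of reads that match several genes are not given in the sources used here. The design text names H3K9me3, a histone mark, but the values are transcript counts. The labels give each library's genotype and a replicate number.

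Counts of the 8 libraries were tested with edgeR 4.0.16 in R 4.3.3 (TMM, filterByExpr, quasi-likelihood test, no covariate). Library totals of the tested genes, after TMM scaling, make 1 read worth 0.0346 to 0.0502 CPM. RPKM used the deposited exon length. Ratios were compared by exact two-sided permutation over 70 assignments. Sequence runs and the alignment used GENCODE M21 (Python 3.11.15, Biopython 1.88), promoters RefSeq. Start and end were the same as in M21 for all members except Zmym2. Scripts were tested on simulated data. Alternatives covered scaling, filters, DESeq2 1.42.0, voom of limma 3.58.1, covariates, the replicate block and left-out libraries; adding Gm10093 to Hdac1 was chosen after seeing the data.

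Members and lists were chosen with earlier results of these data known. Named were all members, genes overlapping Kdm1a, called list genes (up to 4 a list, smallest adjusted p) and the 5 genes most like Kdm1a, passing over predicted genes, pseudogenes, Xist and Y-linked genes. Some list genes are counted but not reported here by name. Rest and Gm10093 were named outside that rule after their values were seen.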

Additional observations from a re-analysis of the deposited data

Results flagged for a closer look

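Hdac2 in control 2, at 214 CPM, lay far above the other 3 controls (185, 185 and 187 CPM): the gap to the nearest of them was 0.941 of the range of the group, above Dixon's critical value for 4 samples. Of 26 groups looked at in this way it was the single one past the limit, and chance gives about 1 in 20.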

How the results depend on the processing

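Kdm1a kept its direction in all 19 alternatives and its call in 13, and it was -0.20 with total library count and between -0.29 and -0.24 when 1 library was left out. Rcor2 kept its direction in all 19 and its call in 14, Phf21a was called in 9, Hdac1 in 4, Hmg20b and Zmym2 in 3 each, and Rcor1, Rcor3 and Hdac2 in none. Members called higher numbered 2 with total library count, DESeq2, a minimum mean CPM of 1, the replicate block or the Y-linked covariate, 3 with voom or without control 2 and knockout 3, and 0 to 3 when 1 library was left out. Members called lower numbered 0 with total library count, 2 with DESeq2, 3 with voom or without control 2 and knockout 3, and 0 to 3 when 1 library was left out. Over all genes, 4494 were called with DESeq2 (13.9% of the 32438 it tested), 8302 with voom (44.9%) and 1258 with the adrenal covariate (6.81%). The count was 7903 without control 2 and knockout 3 (42.7%), and 153 (0.819%) to 7084 (37.4%) when 1 library was left out. The share was 14.8% with total library count, 17.3% with a minimum mean CPM of 1, 17.5% with the replicate block and 11.2% with the Y-linked covariate. Of the listed complex genes, 7 were called with total library count or the Y-linked covariate, 30 with voom, 4 with no filter on low counts, 1 with the adrenal covariate, 29 without control 2 and knockout 3, and 0 to 28 when 1 library was left out. Rcor1 turned to -0.022 with the adrenal covariate, and Rcor3 to -0.016 with the Y-linked covariate and -0.049 with the adrenal covariate; when 1 library was left out Rcor3 ran from -0.014 (without knockout 1) to 0.072 (without knockout 2). The causes were not tested. The 3 ratios kept their direction when 1 library was left out. Replicate numbers were not shown to pair the samples (correlations of -0.11, 0.33, 0.23 and -0.06 between same-numbered libraries). With the replicate as a block, 3229 genes and 3 members were called, Phf21a being added, and Kdm1a was at -0.27 (edgeR adjusted p = 0.0370). Depth limits low genes most: Rcor2 had 439 to 923 counts per library, the other members more.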
